A study of Mus musculus with 6 samples.

Results

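The calcitonin receptor gene *Calcr*, its close relative *Calcrl* and the genes of their accessory proteins, *Ramp1*, *Ramp2* and *Ramp3*, were examined in ribosome-bound RNA of medial amygdala (MeA) *Kiss1* cells. These genes were chosen by symbol, with earlier results from the same libraries known, and 5 of the 5 were among the 13886 listed protein-coding genes. Genes had to pass a minimum expression level to be listed, so that all 5 are listed is not a finding. None of the 5 passed the threshold for a difference between estradiol (E2)-treated and ovariectomized (OVX) females (adjusted p under 0.05 from limma). The largest difference was in *Calcr*, whose mean was 1.78 times higher without E2 (95% interval of 1.26 to 2.50, adjusted p = 0.256). Its libraries did not overlap between the treatment groups, which was seen in 13.7% of all genes. With robust empirical Bayes its interval on the log2 scale was -1.69 to 0.03. Without both replicates numbered 3 its log2 difference shrank from -0.83 to -0.30. By mean level per kilobase of the longest transcript, *Ramp1* was the highest of the 5, followed by *Ramp2*, *Calcr*, *Ramp3* and *Calcrl*. The ranges of *Ramp1* and *Ramp2* overlapped across libraries.

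The study was designed to find which transcripts MeA *Kiss1* cells of female mice carry on their ribosomes, and whether E2 alters them. All mice were Kiss1Cre+/Rpl22HA+/+ (KissCre+/Rpl22HA+/+ in the labels): Cre, made where *Kiss1* is or has been active, removes the normal last exon of *Rpl22*, so that ribosomes of those cells carry a hemagglutinin (HA) tag and can be precipitated with their mRNA. Every female, OVX or E2, had its ovaries removed at 8 weeks of age, carried an E2 implant for the next 4 days to drive Cre, and then went 7 days without it. The E2 group (n = 3 libraries) then received a second E2 implant for 5 days, whereas the OVX group (n = 3 libraries) received none, and for each library the punched MeA of 4 mice was pooled. Since *Kiss1* itself responds to E2, the tag depends on exposure to E2 as well as on the cell type. Both groups had the pre-treatment, but only the E2 group had the second implant. Whether the same cells were tagged in both groups was not tested.

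The calcitonin receptor (CTR, from *Calcr*) and the calcitonin receptor-like receptor (CLR, from *Calcrl*) are class B1 G protein-coupled receptors, whose main signal runs through Gs and cAMP. Receptor activity-modifying proteins (RAMPs), which span the membrane once, decide which peptide is bound: CTR alone binds calcitonin, and CTR with any of the RAMPs forms an amylin receptor. CLR needs a RAMP to reach the cell surface, and forms the receptor for calcitonin gene-related peptide (CGRP) with RAMP1 and receptors for adrenomedullin with RAMP2 or RAMP3. In the brain, CTR is known for the satiety effect of amylin in the area postrema and for parental behavior in the medial preoptic area, while CLR with RAMP2 is best known from vessel endothelium.

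The promoter-side sequences of *Calcr*, the gene with the largest difference between treatments, and of *Ramp1*, the most abundant member, are printed here because the treatment is a ligand of estrogen receptors, which bind DNA. Each is the 250 bases before an annotated start (RefSeq, GRCm38.p6), written 5′ to 3′ on the strand of the gene, and the table held such stretches for 4 of the 5 genes. Capitals mark 2 motifs searched on both strands: the GC box (GGGCGG) and a single arm (GGTCA, which reads TGACC on the other strand) of the estrogen response element, which is itself contained in the full element (GGTCANNNTGACC).
*Calcr*, inner start, chr6:3763624-3763873, minus strand: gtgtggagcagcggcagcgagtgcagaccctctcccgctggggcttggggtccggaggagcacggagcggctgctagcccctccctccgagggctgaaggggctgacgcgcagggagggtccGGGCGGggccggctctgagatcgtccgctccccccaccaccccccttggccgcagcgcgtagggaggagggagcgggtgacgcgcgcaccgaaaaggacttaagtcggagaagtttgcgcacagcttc
*Calcr*, outer start, chr6:3764714-3764963, minus strand: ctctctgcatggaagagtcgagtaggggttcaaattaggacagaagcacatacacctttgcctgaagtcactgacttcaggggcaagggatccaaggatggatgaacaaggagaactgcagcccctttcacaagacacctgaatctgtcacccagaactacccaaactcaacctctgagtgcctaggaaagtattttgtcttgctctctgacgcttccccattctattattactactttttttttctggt
*Ramp1*, chr1:91179572-91179821, plus strand: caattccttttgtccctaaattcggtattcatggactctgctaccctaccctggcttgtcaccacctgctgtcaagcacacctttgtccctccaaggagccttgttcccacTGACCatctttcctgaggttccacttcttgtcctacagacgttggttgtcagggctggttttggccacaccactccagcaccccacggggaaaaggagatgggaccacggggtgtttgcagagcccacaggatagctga
The inner *Calcr* stretch was 70.8% G or C and held 1 GC box 128 bases before the start, whereas the outer stretch was 46.0% G or C and held none of the motifs. The median over all 32851 stretches of this length was 52.4% G or C, and 32.7% of them held a GC box. The *Ramp1* stretch held 1 estrogen response element arm, 139 bases before the start, a motif in 35.2% of all stretches. The full estrogen response element was in 0 of the 5 stretches of the members and in 0.0639% of all stretches, and the cAMP response element (TGACGTCA) was in 0 of the 5 and in 1.55% of all. *Calcrl* and *Ramp3* held 1 and 3 GC boxes, and neither held an estrogen response element arm. A match describes letters only, and binding was not measured.

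The scaled library sizes, computed from the lowest value in each library, were 28.1M to 34.2M, and an exact permutation test of 3 against 3 libraries has a smallest possible p of 0.1. Differences are E2 minus OVX on the log2 scale of CPM (counts scaled to a library of fixed size), with the standard error (SE) from limma. *Kiss1*, the gene that drives the tag, is listed under 2 overlapping identifiers. The first (ENSMUSG00000115958) had log2 CPM of 2.29, 1.82 and 1.13 in OVX and 3.72, 3.80 and 3.45 in E2 libraries, and was higher with E2 (log2 difference 1.91, SE 0.26, limma adjusted p = 0.00475). The second (ENSMUSG00000116158) ran from -5.82 to 0.10 in OVX and from 2.65 to 3.18 in E2 libraries. Its -5.82, in OVX replicate 1, is the value that stands for 0 reads in that library. The difference was 5.05 (SE 1.09) and did not pass the threshold (limma adjusted p = 0.0942). Markers of other cell types were present as well as those of neurons. Summed CPM was 7567 to 8072 for 8 neuronal genes, 1762 to 2318 for 10 astrocyte genes and 1672 to 2568 for 10 oligodendrocyte genes. For 8 choroid plexus genes it was 399 to 1094, most of it from *Ttr*. Libraries of whole MeA tissue or of mice without Cre were not analysed here, so how far each transcript was enriched by the precipitation was not tested.

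*Calcr* (ENSMUSG00000023964) lies on the minus strand of chromosome 6 from 3685680 to 3764714 (GRCm38), has 5 annotated protein-coding transcripts and shares no exonic base with another annotated gene. In OVX females its log2 CPM was 4.43, 4.36 and 5.26 in replicates 1, 2 and 3. In E2-treated females it was 4.19, 3.99 and 3.38. Every OVX library was above every E2 library, but the gap between the groups was only 0.17, and OVX replicate 3 and E2 replicate 3 stood apart from the other four. The group means were 4.68 ± 0.50 (SD, n = 3) without E2 and 3.85 ± 0.42 (SD, n = 3) with it. This gave a log2 difference of -0.83 (SE 0.23, 95% interval -1.32 to -0.34), with an unadjusted p of 0.00290, the 157th smallest of the 13886 genes, and an adjusted p of 0.256 in limma. *Calcr* therefore did not pass the threshold. With robust empirical Bayes the SE was 0.34, the unadjusted p of limma 0.0562 and the interval -1.69 to 0.03. In bulk RNA, fewer cells with the transcript and less transcript per cell cannot be told apart.

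The libraries with the extreme values carried much of the *Calcr* difference. It was -0.54 without OVX replicate 3 and -0.59 without E2 replicate 3, and -0.30 (SE 0.15, limma adjusted p = 0.532) with both left out, an alternative added after the values were seen in which the interval (-0.63 to 0.02) includes 0. Between the highest and the lowest of the 6 libraries *Calcr* differed 3.67-fold, from 10.4 to 38.2 CPM, which are 337 to 1072 reads once counts are rebuilt. The SD of *Calcr* within groups was 0.46, against a median of 0.14 over 2366 genes of like mean level, and was higher than in 99.2% of them. Its spread between pools of the same treatment was thus wide for its level.

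**Figure D1:**
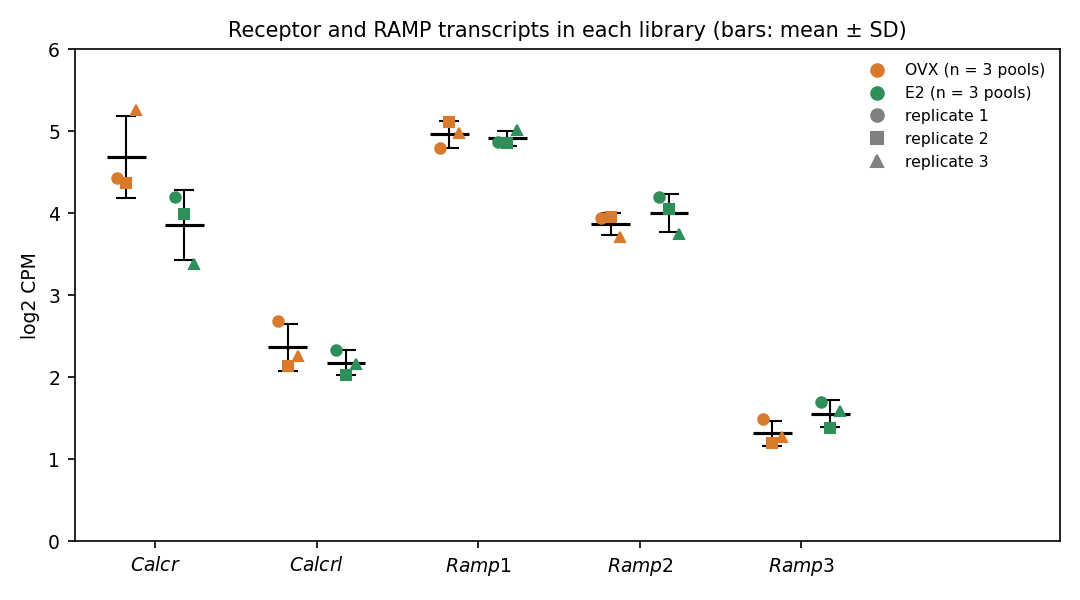
Log2 CPM of the 5 genes in each of the 6 libraries, with OVX in orange, E2 in green, the marker shape giving the replicate number, and black bars the mean ± SD of 3 libraries. Only *Calcr* has groups that do not overlap, and its replicates numbered 3 hold both its highest value (5.26, OVX) and its lowest (3.38, E2).

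*Calcrl* (ENSMUSG00000059588, chromosome 2 from 84330626 to 84425411, minus strand) was far lower. Its log2 CPM was 2.69, 2.14 and 2.26 in OVX and 2.33, 2.03 and 2.17 in E2 libraries. The groups overlapped, and the highest value was that of OVX replicate 1. The difference was -0.19 (SE 0.22, 95% interval -0.67 to 0.30, limma adjusted p = 0.894), and the counts behind it were 134 to 182 reads per library. At this precision neither direction of difference was set apart from 0.

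*Ramp1* (ENSMUSG00000034353, chromosome 1 from 91179822 to 91225196, plus strand), which encodes the partner of CLR in the CGRP receptor, had log2 CPM of 4.79, 5.11 and 4.98 in OVX and 4.86, 4.85 and 5.02 in E2 libraries. All 6 values lay within 0.32 of each other, the narrowest range of the 5 genes. The difference was -0.05 (SE 0.10, 95% interval -0.27 to 0.17, limma adjusted p = 0.943), from 783 to 1182 reads per library. Of the 5 genes it had the narrowest interval, and its ends are 0.27 below and 0.17 above 0.

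*Ramp2* (ENSMUSG00000001240, chromosome 11 from 101246028 to 101259546, plus strand), the partner of CLR in the main adrenomedullin receptor, had log2 CPM of 3.94, 3.96 and 3.71 in OVX and 4.20, 4.05 and 3.75 in E2 libraries. Replicate 3 was lowest in both groups, and the groups overlapped. The difference was 0.13 (SE 0.14, 95% interval -0.17 to 0.44, limma adjusted p = 0.867). Of its 3301 annotated exonic bases, 1103 are shared with *Vps25*, a neighbor on the same strand that is also listed, so that reads there cannot be assigned by position alone.

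*Ramp3* (ENSMUSG00000041046, chromosome 11 from 6658521 to 6677475, plus strand), the other adrenomedullin receptor partner, was the lowest in CPM, with log2 CPM of 1.49, 1.20 and 1.27 in OVX and 1.70, 1.38 and 1.59 in E2 libraries. The groups overlapped, with 67 to 98 reads per library. Its difference was 0.24 (SE 0.28, 95% interval -0.36 to 0.83, limma adjusted p = 0.885), and the SE was 0.12 (unadjusted p = 0.0938 in limma) without the mean-variance trend. Its SD within groups was lower than in most genes of like level (0.16 against a median of 0.36). The library kit did not keep strand, and 101 exonic bases lie opposite an antisense pseudogene, *Gm11978*.

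Of the 5 genes, 0 were past the adjusted threshold, against 0.288% of all genes (40 of 13886, with 32 higher and 8 lower with E2, the latter 1 to 30 with a library left out). By the unadjusted p, 1 of the 5 was under 0.05, against 8.56% of all genes. *Calcr* was also the 1 gene of the 5 whose groups did not overlap. That was seen in 13.7% of all genes in either direction and in 6.82% with the E2 libraries lower, so a lack of overlap was not rare in these libraries.

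**Figure D2:**
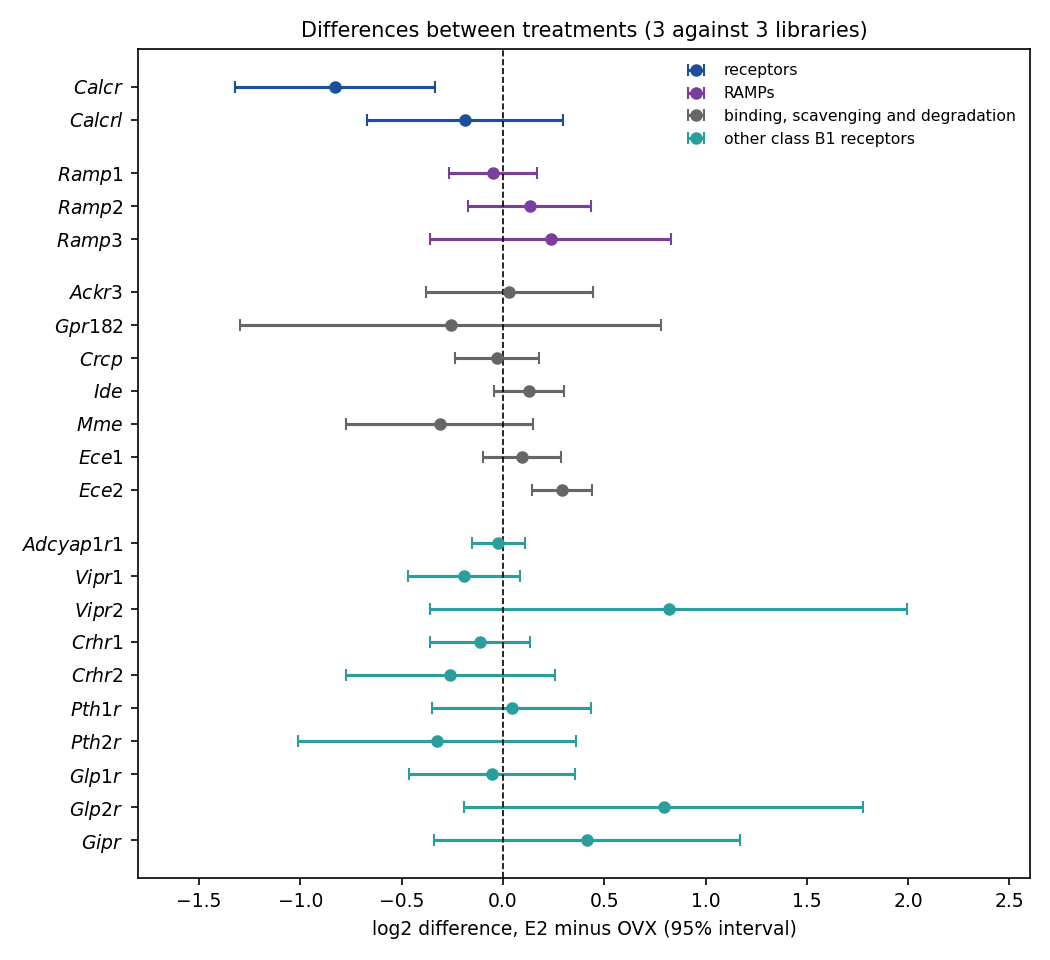
Log2 differences (E2 minus OVX) with 95% intervals from limma for the 2 receptors, the 3 RAMPs, 7 genes for binding, scavenging or degradation of the peptides and 10 other class B1 receptors. None passed the adjusted threshold, and among the members only the interval of *Calcr* (-1.32 to -0.34) leaves out 0, although it includes 0 with robust empirical Bayes (-1.69 to 0.03).

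Levels of different genes were compared as CPM per kilobase of the longest annotated transcript, in the 6 libraries together. *Ramp1* had 13.2 ± 1.12 (SD, n = 6) CPM per kb and *Ramp2* 10.4 ± 1.34 (SD, n = 6). *Calcr* had 5.53 ± 2.50 (SD, n = 6), *Ramp3* 2.05 ± 0.27 (SD, n = 6) and *Calcrl* 0.999 ± 0.172 (SD, n = 6). *Ramp1* (11.9 to 14.9) and *Ramp2* (8.84 to 12.4) overlapped across libraries, as did *Ramp2* and *Calcr* (2.77 to 10.2). *Calcr*, *Ramp3* (1.72 to 2.44) and *Calcrl* (0.835 to 1.32) did not overlap each other. The order of the means was the same with the mean length of the protein-coding transcripts, but with the union of all exons *Calcr* (5.32 CPM per kb) stood above *Ramp2* (4.67). By mean log2 CPM, which does not take length into account, *Ramp1* ranked 6492 of 13886, *Calcr* 8172, *Ramp2* 8913, *Calcrl* 11588 and *Ramp3* 12511.

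Of the receptors, *Calcr* was the more abundant in each library. Its level per kilobase was 4.33, 6.06 and 10.3 times that of *Calcrl* in OVX and 4.71, 5.06 and 3.01 times in E2 libraries. The ratio was highest in OVX replicate 3 and lowest in E2 replicate 3, the libraries where *Calcr* itself was highest and lowest, and the groups overlapped. *Ramp1* exceeded *Calcr* in all 6 libraries, by 2.08, 2.72 and 1.34 times in OVX and by 2.57, 2.95 and 5.04 times in E2 libraries. *Ramp1* also exceeded *Calcrl*, by 9.01 to 16.5 times in OVX and 12.1 to 15.2 times in E2 libraries. Such ratios describe pooled transcripts and do not show whether a receptor and a RAMP are made in the same cell.

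*Ramp1* and *Ramp2* together made up most of the RAMP transcripts. Per kilobase of the longest transcript, *Ramp1* held 51.5% ± 4.37 (SD, n = 6) of the summed RAMP level, *Ramp2* 40.5% ± 3.97 (SD, n = 6) and *Ramp3* 7.97% ± 1.02 (SD, n = 6). The share of *Ramp1* was 53.3% ± 3.91 (SD, n = 3) without E2 and 49.8% ± 4.83 (SD, n = 3) with it, a difference within their spread. The share of *Ramp3* ran from 6.36% to 8.90% over the 6 libraries. The order of the mean shares was the same under each of the 4 length choices, although their size moved. *Ramp2* held 27.7% with the union of exons and 45.1% with the mean coding length. With the mean coding length, *Ramp1* (44.4% to 54.8%) and *Ramp2* (40.5% to 50.4%) overlapped over the libraries. *Ramp2* thus held the larger share in some of them.

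**Figure D3:**
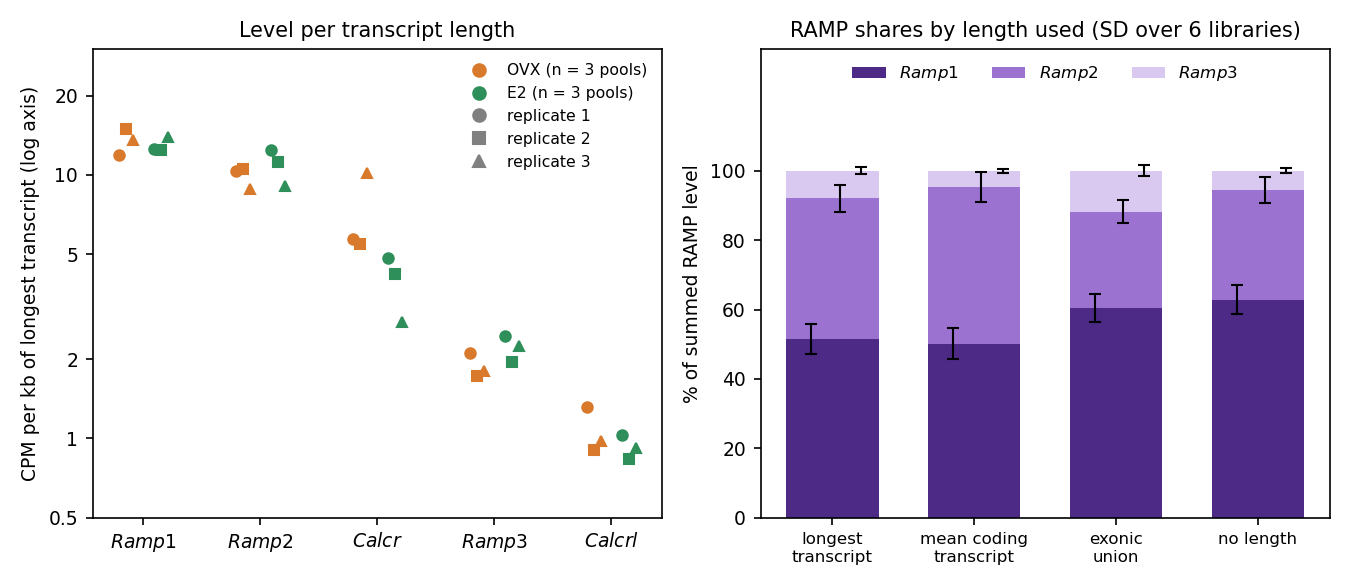
Left, CPM per kilobase of the longest transcript (log axis) of the 5 genes in each library, and right, the mean share of each RAMP in the summed RAMP level under 4 choices of length, with the SD over 6 libraries. *Ramp1* is highest (11.9 to 14.9 CPM per kb) and holds the largest mean RAMP share under each choice, from 50.2% to 62.9%. With the mean coding length its share (44.4% to 54.8%) overlaps that of *Ramp2* (40.5% to 50.4%) over the libraries.

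The peptides that bind these receptors were not among the listed genes. Of *Calca* and *Calcb* (calcitonin and CGRP), *Iapp* (amylin), *Adm* (adrenomedullin) and *Adm2* (intermedin), 0 of 5 were listed. Genes below the minimum expression level were left out of the list, so values for the 5 are not available here. The paper names *Calca* among the ligands that were absent. *Crcp*, which encodes a protein that couples the CGRP receptor to its signal, averaged 4.77 in log2 CPM and differed by -0.03 (SE 0.10, limma adjusted p = 0.972). *Ackr3*, a scavenging receptor that also binds adrenomedullin, had a mean of 3.01 and a difference of 0.03 (SE 0.19, limma adjusted p = 0.987). All 7 genes of the list for binding, scavenging and degradation were listed, 4 higher and 3 lower with E2, and 0 passed the threshold. The 1 gene among them with an unadjusted p under 0.05, named after its values were seen, was *Ece2*, an endothelin-converting enzyme (log2 difference 0.29, SE 0.07, limma adjusted p = 0.134). Such an unadjusted p was seen in 8.56% of all genes.

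No gene of the signaling lists passed the threshold in limma. Of 13 other class B1 receptors, 10 were listed, 4 higher and 6 lower, with a median difference of -0.04, and 0 had an unadjusted p under 0.05. All 14 genes for G protein subunits (*Gnaq* and *Gna11* as well as those of Gs), arrestins and receptor kinases were listed. Of them, 6 were higher and 8 lower with a median of -0.02, and 1 had an unadjusted p under 0.05. Their smallest unadjusted p was that of *Gng2*, a G protein gamma subunit (0.22, SE 0.06, limma adjusted p = 0.279), followed by *Gng3* (0.08, SE 0.06, limma adjusted p = 0.790). Of 25 genes of the cAMP pathway, all were listed, 11 higher and 14 lower with a median of -0.01, and 1 had an unadjusted p under 0.05. *Adcy1*, an adenylyl cyclase (-0.24, SE 0.11, limma adjusted p = 0.563), and *Crtc1*, a CREB coactivator (-0.12, SE 0.06, limma adjusted p = 0.604), had the smallest unadjusted p. For comparison, the median difference over all 13886 genes was 0.00343, and 8.56% of them had an unadjusted p under 0.05.

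*Calcr* lies beside the imprinted *Peg10* and *Sgce* region, and in mouse brain is itself known to be expressed mainly from the maternal copy. Over all genes, 0.288% passed the threshold and 8.56% had an unadjusted p under 0.05 in limma. Within 1.5 Mb of *Calcr*, a window set with results known, 10 other genes were listed and 1 passed the threshold. This was *Peg10*, a paternally expressed gene of retrotransposon origin 983 kb from *Calcr*, with log2 CPM of 7.03, 7.19 and 7.19 in OVX and 6.74, 6.49 and 6.41 in E2 libraries. It was lower with E2 (log2 difference -0.59, SE 0.08, limma adjusted p = 0.00562), and its OVX values, unlike those of *Calcr*, lay close together. *Sgce*, which shares a promoter region with *Peg10*, had a difference of 0.13 (SE 0.11, limma adjusted p = 0.815). *Ppp1r9a*, which follows *Peg10* on the chromosome, was the other of the 2 genes with an unadjusted p under 0.05 (-0.38, SE 0.11, limma adjusted p = 0.298), and its groups overlapped. *Vps50*, the closest listed gene at 82.1 kb, had a difference of 0.04 (SE 0.08, limma adjusted p = 0.941). The differences near *Calcr* thus had both signs, and reads were not assigned to parental alleles. Around the other 4 members, 0 of 19 (*Calcrl*), 0 of 19 (*Ramp1*), 0 of 75 (*Ramp2*) and 0 of 28 (*Ramp3*) listed genes within the same distance passed. Of them, 3, 1, 3 and 2 had an unadjusted p under 0.05, against 8.56% of all genes.

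**Figure D4:**
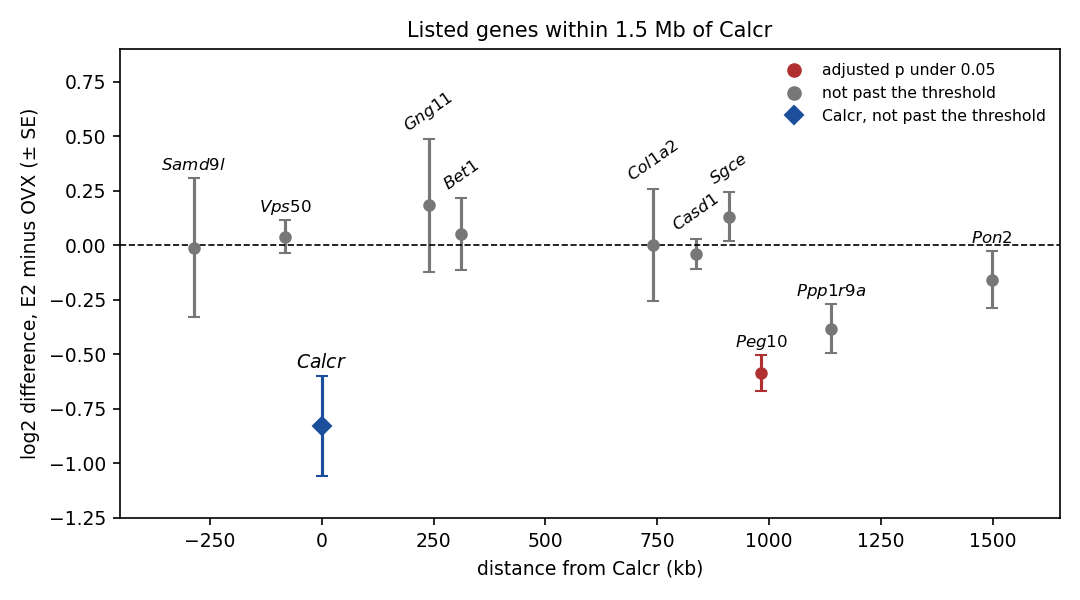
Log2 differences (E2 minus OVX, ± SE) of *Calcr* and the 10 other listed genes within 1.5 Mb, plotted by distance from *Calcr* along the chromosome. *Peg10* (-0.59, red) is the 1 gene past the threshold, against 0.288% of all genes, and *Ppp1r9a* beside it has -0.38. Much closer to *Calcr*, *Vps50* and *Bet1* lie near 0, and *Gng11* has 0.18 (SE 0.30).

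A list of 6 genes known from forebrain excitatory neurons was, like *Calcr*, lower in the E2 libraries, and whether these transcripts came from the tagged cells or from others was not tested. Their summed CPM was 1137, 957 and 880 in OVX and 725, 668 and 871 in E2 libraries, and *Slc17a7*, a vesicular glutamate transporter, made up 80.2% to 84.3% of it. The sums did not overlap between groups, by a narrow gap between the replicates numbered 3, and neither did the sums of the other 5 genes (156 to 178 in OVX and 129 to 149 in E2 libraries). The mean log2 CPM over the 6 genes did overlap (5.18 to 5.66 in OVX and 4.75 to 5.19 in E2 libraries). *Slc17a7* was the 1 gene of the 6 whose own groups did not. A lack of overlap was seen in 13.7% of all genes, and in 6.82% with the E2 libraries lower. All 6 were lower with E2 and 5 had an unadjusted p under 0.05, against 8.56% of all genes, but 0 passed the threshold. The smallest p were those of *Slc17a7* (-0.42, SE 0.11, limma adjusted p = 0.174), and *Emx1*, a cortical homeobox gene (-0.58, SE 0.18, limma adjusted p = 0.316). Within groups the order was not that of *Calcr*. OVX replicate 3, highest for *Calcr*, had the lowest forebrain sum of its group, and E2 replicate 3, lowest for *Calcr*, had the highest sum of its group. Choroid plexus genes were lower with E2 in 8 of 8 (0 past the threshold, 2 with an unadjusted p under 0.05). Their sums were 808, 1094 and 699 in OVX and 1030, 399 and 638 in E2 libraries, and overlapped. *Ttr* made up most of each sum, with a mean log2 CPM of 9.39 against 4.67 for *Kl*, the next highest. *Clic6* (-0.66, SE 0.25, limma adjusted p = 0.454) and *Kl* (-0.40, SE 0.18, limma adjusted p = 0.561) had the smallest p. The part of either cell type in the *Calcr* difference was not tested.

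Vessel markers were also set beside the CLR genes. All 18 endothelial genes were listed, 14 higher and 4 lower with E2, and 0 passed or had an unadjusted p under 0.05 (smallest p in *Ly6c1*, 0.44, SE 0.25, limma adjusted p = 0.687, and *Vwf*, 0.74, SE 0.42, limma adjusted p = 0.692). Their summed CPM was 354, 619 and 333 in OVX and 526, 398 and 461 in E2 libraries. *Calcrl* was highest in OVX replicate 1, where this sum was next to lowest, and *Ramp2* was highest in E2 replicate 1, where it was next to highest. The 13 mural genes had sums of 186 to 300 in OVX and 209 to 278 in E2 libraries, with 11 higher, 0 past the threshold and 1 with an unadjusted p under 0.05 (smallest p in *Cspg4*, 0.30, SE 0.13, limma adjusted p = 0.544, and *Tagln*, 0.54, SE 0.36, limma adjusted p = 0.745). Over all genes, 8.56% had an unadjusted p under 0.05. How much of the *Calcrl* and RAMP transcripts came from vessel cells was not tested.

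**Figure D5:**
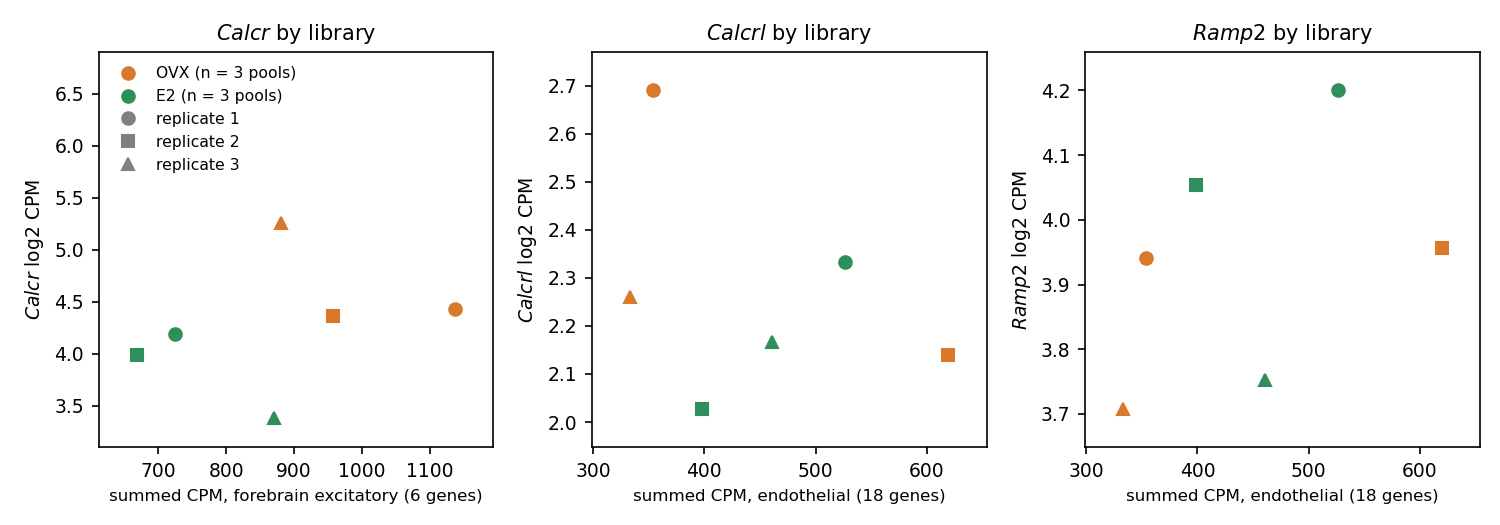
Log2 CPM of *Calcr*, *Calcrl* and *Ramp2* against the summed CPM of marker genes in the same library, with colors and shapes as in the plot of the members by library. *Calcr* and the forebrain sum (mostly *Slc17a7*, with 880 in the lowest OVX and 871 in the highest E2 library) rank the libraries of each group differently, and the highest *Calcrl* value (2.69) falls at an endothelial sum of 354.

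Among the remaining marker lists, 1 gene passed the threshold. For comparison with the counts given here, 0.288% of all genes passed it and 8.56% had an unadjusted p under 0.05. It was *Col1a1*, a collagen of fibroblasts (1.18, SE 0.22, limma adjusted p = 0.0469), in a list of 8 fibroblast and meninges genes of which 7 were listed, 5 higher and 2 lower. Astrocyte genes were higher with E2 in 9 of 10, with 0 past the threshold and 3 with an unadjusted p under 0.05 (*Aldoc* 0.32, SE 0.07, limma adjusted p = 0.117, and *Gja1* 0.18, SE 0.08, limma adjusted p = 0.512). Oligodendrocyte genes were likewise higher in 9 of 10, with 0 past the threshold and 2 with an unadjusted p under 0.05 (*Mobp* 0.32, SE 0.11, limma adjusted p = 0.413, and *Olig1* 0.21, SE 0.09, limma adjusted p = 0.563). Microglial genes were lower in 8 of 10, with 0 past the threshold and 1 with an unadjusted p under 0.05, which was not *Tmem119* (-0.28, SE 0.17, limma adjusted p = 0.719). Of the 8 neuronal genes, 5 were higher and 3 lower, with 0 past the threshold or with an unadjusted p under 0.05 (*Syt1* -0.09, SE 0.06, limma adjusted p = 0.742, and *Snap25* 0.08, SE 0.06, limma adjusted p = 0.797).

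The 5 genes differed in their order across libraries. Pearson's r of log2 CPM over the 6 libraries, given as a description because all genes share the same pools, was 0.28 for *Calcr* with *Calcrl*, -0.02 with *Ramp1*, -0.20 with *Ramp2* and -0.54 with *Ramp3*. *Calcrl* had an r of -0.55 with *Ramp1*, 0.04 with *Ramp2* and 0.32 with *Ramp3*. With 6 points, many genes follow any given gene closely: 96 genes (0.691% of those listed) had an r above 0.9 with *Calcr*, and 58 to 116 did so with each other member. The genes most like *Calcr* were *Kpna6* (0.999), *Stat5b* (0.978), *Prune1* (0.977), *Utp4* (0.977) and *Smarcal1* (0.976), all with small differences between treatments, from -0.17 to -0.04. Those most like *Calcrl* were *Ak8* (0.995), *Cd6* (0.992) and *Smg9* (0.986), and those most like *Ramp1* were *Crat* (0.995), *Usp6nl* (0.994) and *Plxnc1* (0.990). *Gid8* (0.992), *Csf1* (0.985) and *Hspb8* (0.984) were most like *Ramp2*, and *Relt* (0.975), *Fanca* (0.974) and *Syt4* (0.971) most like *Ramp3*.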

How the data were processed

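RNA-seq was run on HA-immunoprecipitated MeA RNA from 6 pools (3 OVX, 3 E2; groups from the sample titles). The log2 CPM values were deposited by the authors, who trimmed reads (Trimmomatic 0.38, per the submitters' notes), aligned them with STAR 2.6.0a, quantified them with RSEM on GRCm38 with Ensembl release 98, kept protein-coding genes above a minimum CPM, and applied TMM scaling and voom. A table of the authors' own comparison (log2 fold changes and p-values) was not used.

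Treatments were compared with limma 3.58.1 (R 4.3.3) on the log2 CPM of all 13886 genes, with a mean-variance trend, treatment as the only term, 2-sided tests and Benjamini-Hochberg adjustment over all genes. The trend took the place of the voom weights, which were not used except as an alternative. The median SE was 0.107. Nothing in the labels says how mice were allotted to pools, so p-values measure the spread between these pools. Read counts were rebuilt with the lowest value in a library set to 0 reads plus the 0.5 that voom adds, and the same gave the scaled library sizes. Positions and lengths came from GENCODE mouse release 21 (GRCm38), and promoter sequences from RefSeq (GRCm38.p6).

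The members, gene lists and tests were chosen with earlier results of these data known. All 5 members were named, with *Crcp* and *Ackr3*, the genes past the threshold in each other list (otherwise the 2 with the smallest unadjusted p), the genes most correlated with each member (5 for *Calcr*, 3 for others) and *Kiss1*. A gene that this rule names is not reported here. The scripts were tested on simulated data.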

Additional observations from a re-analysis of the deposited data

How the results depend on the processing

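Across 16 alternatives for each of the 5 members (80 values, of which 15 alternatives were planned and 1 was added after seeing the data), 79 kept the direction and stayed short of the threshold, and 0 passed it. The exception was *Ramp1*, which turned to 0.025 without OVX replicate 2. The 6 values with a library left out ran from -0.997 to -0.542 for *Calcr* (adjusted p = 0.124 to 0.422), from -0.30 to -0.02 for *Calcrl*, from -0.14 to 0.025 for *Ramp1*, from 0.03 to 0.26 for *Ramp2* and from 0.16 to 0.32 for *Ramp3*. Over the other 9 planned settings (no trend, voom weights, 2 scalings, a filter, 2 offsets, robust empirical Bayes and a replicate block) *Calcr* stayed between -0.84 and -0.79, with an adjusted p of 0.216 to 0.673. Its interval left out 0 in all of these but robust empirical Bayes (-1.69 to 0.03). The count of genes past the threshold was 40 and fell to 0 in limma without the mean-variance trend (1017 genes with an unadjusted p under 0.05, against 1188); the cause was not tested. It was 20 to 66 with a library left out (21 without OVX replicate 1, 26, 20 and 66 without E2 replicates 1, 2 and 3) and 115 with both replicates numbered 3 left out. Of these, the genes lower with E2 numbered 8 at first, 1 without OVX replicate 1 or E2 replicate 2, 30 without E2 replicate 3 and 67 without both replicates numbered 3.

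Same-numbered libraries did not deviate together over all genes (correlations of -0.02, -0.12 and -0.08). This gave no sign that the numbers pair them, but it cannot exclude a pairing that acts on only some genes. With the replicate block, *Calcr* had a difference of -0.83 with an adjusted p of 0.396, and 35 genes passed.

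By the union of exons, *Calcr* took place 2 and *Ramp2* place 3 in the order per kilobase. *Ramp1*, *Ramp2* and *Ramp3* held 60.5%, 27.7% and 11.8% of the RAMP level with that length, and 62.9%, 31.5% and 5.59% with no length. With the mean coding length *Ramp2* held 45.1% and *Ramp3* 4.68%. The fewest reads stood behind *Ramp3* (67 to 98 per library) and *Calcrl* (134 to 182).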
